A study of Mus musculus with 6 samples.

Results

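The genes described are the 55 genes of the DNA replication machinery of the mouse, among 24973 genes measured on each array. They were taken by symbol from a list of replication proteins, by a rule that uses no measured value, and all 55 were found. Earlier results of these data were known when the list was chosen. Affymetrix Mouse Gene 2.0 ST arrays were used to measure expression in 2 populations of spermatogonia sorted from adult FVB/N mice aged 2 to 3 months. The first was β-2M-SPα-6+c-kit-, called undifferentiated spermatogonia, and the second was β-2M-SPα-6+c-kit+, called differentiating spermatogonia. Both lacked surface β-2 microglobulin, lay in the Hoechst side population and carried α-6 integrin, and they were separated by the receptor c-kit. There were 3 arrays per population (replicates 1 to 3), each from 10000 cells of 1 mouse and 500 pg of amplified RNA. Whether a mouse gave both populations is not stated in the sources used here. Fold changes are given as c-kit- over c-kit+ cells on the log2 scale, so that a negative value is a lower level in c-kit- cells.

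A cell copies its genome in S phase from many origins. In G1 the origin recognition complex (ORC), Cdc6 and Cdt1 load the ring-shaped helicase Mcm2 to Mcm7 onto DNA, a step called licensing, and in S phase kinases, Cdc45 and the GINS complex switch the helicase on. Primase and polymerase α then start each strand, polymerases δ and ε extend it on the sliding clamp PCNA, and ribonucleotide reductase supplies deoxynucleotides. Transcripts of many of these proteins rise at the border of G1 and S phase in mammalian cells, under E2F factors. In the testis, c-kit+ spermatogonia are the transit-amplifying cells that divide repeatedly and then enter meiosis after a last round of replication.

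Markers of the labelled populations were examined. They were chosen with earlier results of these data known, so they describe the populations and are no independent test of the labels. Kit, the receptor used for the sort, had log2 values of 6.07, 6.35 and 6.03 on the c-kit- arrays, against 9.84, 9.85 and 9.69 on the c-kit+ arrays. Of 12 markers of undifferentiated spermatogonia 11 (91.7%) were higher in c-kit- cells. Of 10 markers of differentiating spermatogonia 7 (70.0%) were lower and Ccnd2 was higher. Over all genes 8.79% were lower and 9.33% higher. Of 14 early meiosis genes 11 were lower and 0 higher on the c-kit- arrays, with mean log2 values per array of 7.63 to 7.81 on c-kit- and 8.97 to 9.22 on c-kit+ arrays. The mean of 14 leukocyte genes was 5.23, 5.38 and 5.08 on the c-kit- arrays, against 6.27, 5.96 and 5.16 on the c-kit+ arrays, so that c-kit+ replicates 1 and 2 stood apart from c-kit+ replicate 3. Of these 14 genes Cd74 and C1qb (14.3%) were lower and Coro1a (7.14%) was higher in c-kit- cells. Cd74, which serves antigen presentation, was at 7.16, 7.03 and 6.80 on the c-kit- arrays, against 9.59, 9.33 and 7.44 on the c-kit+ arrays, and Ptprc, which marks all leukocytes, was at 3.43 to 3.47 on c-kit- and 3.62 to 4.15 on c-kit+ arrays. Genes of spermatids had mean log2 values of 9.23 to 9.76 on c-kit- and 9.35 to 9.63 on c-kit+ arrays, with 1 of 10 lower. Of the somatic markers, 1 of 12 for Sertoli cells and 4 of 8 for endothelial cells were higher in c-kit- cells, and 1 of 7 for Leydig cells and 2 of 8 for peritubular myoid cells were lower. The part of RNA from other cell types and of meiotic genes in the results below was not tested.

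Of the 55 genes, 21 (38.2%) had a lower level in c-kit- cells and passed the test (adjusted p under 0.05, limma, Benjamini-Hochberg over all genes), against 8.79% of all genes tested, and 3 (5.45%) were higher, against 9.33% of all genes tested. The 3 higher genes were Gins4, Pola1 and Chaf1b. Shares over all genes, here and below, include many weakly expressed genes. Array means were 8.09 to 8.53 for the 55 genes and 5.61 to 5.64 over all genes. With only genes above the median level in the fit, 24 of the 55 genes were lower and 3 higher. That fit called 2227 lower and 2275 higher genes in all, against 2196 and 2331 with every gene. Shares among better expressed genes are thus larger than those over all genes. The median fold change of the 55 genes was -0.31, against -0.04 over all genes, and 46 (83.6%) had a negative value, against 56.4% of all genes. All c-kit- arrays lay below all c-kit+ arrays for 30 of the genes (19.1% of all genes did so) and above them for 6 (15.9% of all genes). The changes ran between -2.13 for Rrm2 and 1.12 for Chaf1b, and 5 called genes, namely Rrm2, Ticrr, Cdc6, Gins2 and Chaf1b, reached an absolute value of 1. These are bulk values, in which fewer cells that express a gene and less RNA per cell cannot be told apart.

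**Figure D1:**
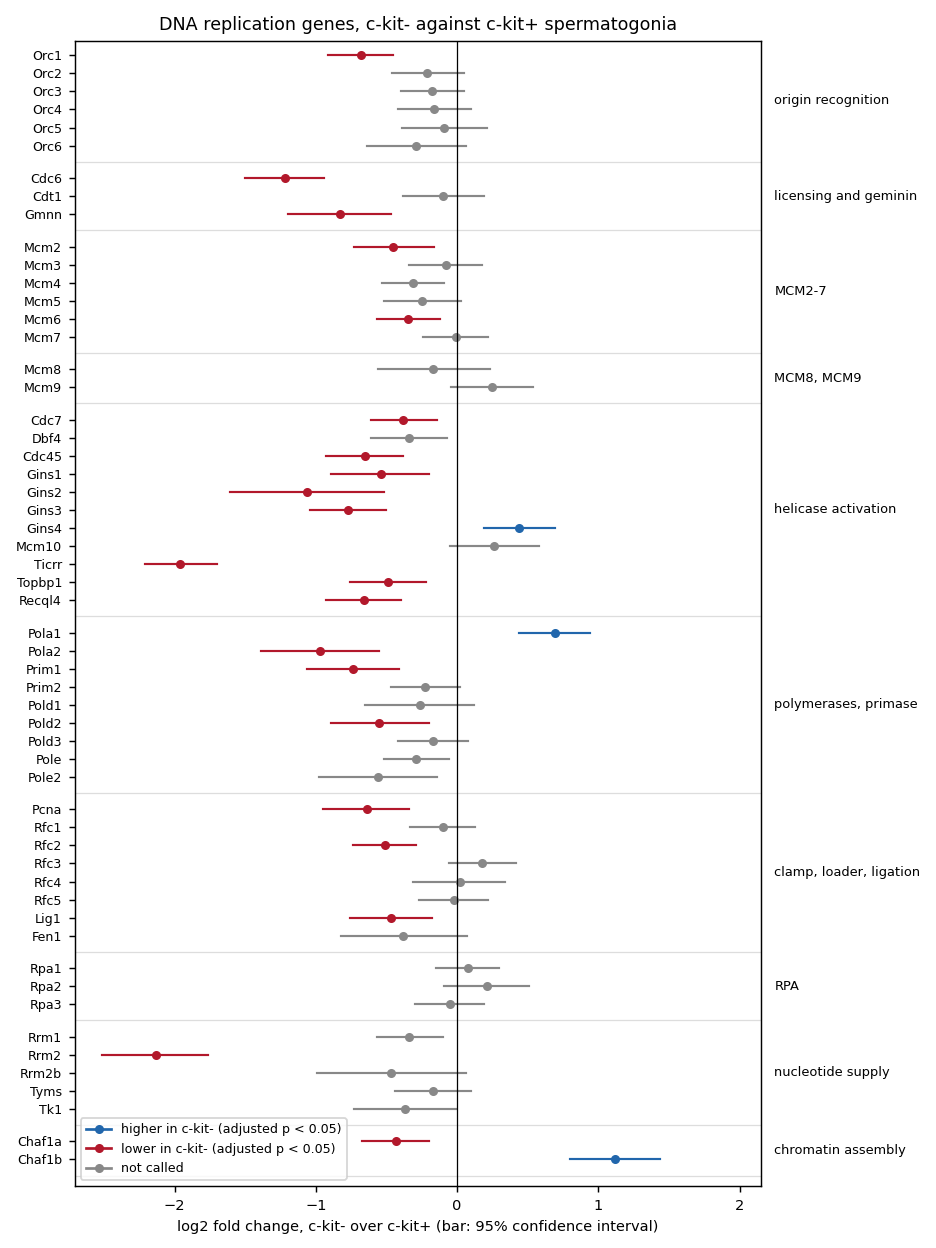
Log2 fold change of each of the 55 replication genes, c-kit- over c-kit+ spermatogonia (x axis), by role in replication (rows); points are limma estimates from 3 arrays per population, bars are 95% confidence intervals and colours give the call at an adjusted p under 0.05. Most points lie left of zero, with Rrm2, Ticrr and Cdc6 farthest left, and Gins4, Pola1 and Chaf1b lie right of it.

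The spread between replicates was small, with a median SD of 0.13 among c-kit- arrays and 0.09 among c-kit+ arrays, and was highest for Gins2 in c-kit- cells (0.54) and Rrm2b in c-kit- cells (0.42). The mean of the 55 log2 values was 8.15, 8.25 and 8.09 on the c-kit- arrays, against 8.53, 8.49 and 8.49 on the c-kit+ arrays. The 24 called genes did not overlap between the populations. With 3 arrays against 3 a call on the same values largely ensures this, so it is no further evidence. The smallest p that the exact permutation test allows for such a gene is 0.1. In limma, 14 of the 24 calls held whichever array was left out, 12 of them lower and 2 higher, and without c-kit+ replicate 1 the count of lower genes fell to 13. Without c-kit+ replicates 1 and 2, which leaves 1 c-kit+ array that is assumed to vary like the c-kit- arrays, only Ticrr (adjusted p = 0.0117), Rrm2 (0.0232) and Cdc6 (0.0336) were still called, with 239 lower and 527 higher genes in all, but all 21 lower and 3 higher genes kept their direction. Among these 24 genes Gins1 shrank most, to -0.32 against -0.54 with all arrays.

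Promoters were examined because E2F factors bind the promoters of many replication genes. RefSeq windows of assembly GRCm38.p6, 250 bases before to 50 bases after a transcription start, were at hand for 45 of the 55 genes and for 18337 of all genes. The letters searched, on both strands, were TTTCCCGC, TTTCGCGC, TTTGCCGC and TTTGGCGC, the E2F-type letters. A match was found for 17 of the 45 genes (37.8%), against 3.23% of all genes. It was as frequent in genes lower in c-kit- cells (6 of 16, 37.5%) as in genes not called (10 of 27, 37.0%), and 1 of the 2 higher genes with a window, Pola1, had one. The windows are shown for genes that took different courses: Cdc6 and Mcm6 were lower in c-kit- cells, Mcm7 was not called, Pola1 was higher, and Rrm2 fell most with no match. The 250 bases before the start are given 5′ to 3′ on the gene's strand, with E2F-type letters in capitals.
Cdc6, chr11:98907901-98908150, plus strand: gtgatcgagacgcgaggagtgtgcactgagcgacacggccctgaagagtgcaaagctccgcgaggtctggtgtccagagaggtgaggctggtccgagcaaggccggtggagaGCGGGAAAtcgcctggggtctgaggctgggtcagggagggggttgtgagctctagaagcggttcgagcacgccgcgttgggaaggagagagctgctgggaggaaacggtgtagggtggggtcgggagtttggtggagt
Mcm6, chr1:128359706-128359955, minus strand: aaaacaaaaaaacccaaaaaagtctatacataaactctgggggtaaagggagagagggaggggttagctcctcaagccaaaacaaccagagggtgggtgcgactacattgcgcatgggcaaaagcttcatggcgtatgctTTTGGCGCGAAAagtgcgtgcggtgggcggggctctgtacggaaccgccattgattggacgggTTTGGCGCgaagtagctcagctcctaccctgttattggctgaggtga
Mcm7, chr5:138171884-138172133, minus strand: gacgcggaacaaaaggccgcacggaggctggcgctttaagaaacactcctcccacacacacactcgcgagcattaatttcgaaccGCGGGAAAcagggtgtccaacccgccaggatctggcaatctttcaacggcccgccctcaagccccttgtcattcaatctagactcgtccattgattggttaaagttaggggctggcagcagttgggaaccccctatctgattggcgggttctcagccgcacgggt
Pola1, chrX:93632156-93632405, minus strand: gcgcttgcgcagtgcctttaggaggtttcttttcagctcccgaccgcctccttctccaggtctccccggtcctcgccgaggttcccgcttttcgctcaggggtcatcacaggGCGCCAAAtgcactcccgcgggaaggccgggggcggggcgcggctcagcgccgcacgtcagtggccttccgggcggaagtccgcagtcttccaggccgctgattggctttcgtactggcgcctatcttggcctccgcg
Rrm2, chr12:24708004-24708253, plus strand: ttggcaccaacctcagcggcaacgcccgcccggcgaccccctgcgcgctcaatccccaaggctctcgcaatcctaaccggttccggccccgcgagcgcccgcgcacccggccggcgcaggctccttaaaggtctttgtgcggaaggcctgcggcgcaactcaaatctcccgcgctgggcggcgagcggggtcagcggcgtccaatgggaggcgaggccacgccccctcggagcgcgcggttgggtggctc
Between the printed match and the start lie 130 bases in Cdc6 and in Pola1 and 157 bases in Mcm7, whose second listed start had no match in its 250 bases. With the 50 bases after the start included, Mcm7 had 2 matches in a window, so not all of its matches are printed. Mcm6 holds 3 matches, with 102, 98 and 39 bases between them and the start, and the first and second overlap. The letters CCAAT were in the windows of 27 of the 45 genes (60.0%), against 41.8% of all genes, and those of the cell cycle homology region (CHR; TTTGAA or TTCGAA) in 9 (20.0%), against 19.6%. Among the lower genes CHR letters were in 5 of 16 windows (31.2%), and among the genes not called in 4 of 27 (14.8%). A match is a run of letters only, and no binding was measured.

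In origin licensing a few genes were lower and most of each complex was not called. Its 15 genes were those of ORC, Cdc6, Cdt1, Mcm2 to Mcm7 and Gmnn, whose protein blocks licensing. Of the 15 genes, 5 (33.3%) were lower and 0 higher in c-kit- cells, against 8.79% and 9.33% of all genes. Gmnn was among the lower ones, and 10 were not called. Yet all 15 had a negative value, against 56.4% of all genes, with a median of -0.25. In ORC, which marks origins, Orc1 alone passed the test among 6 subunits. Orc1 had log2 values of 7.72, 7.76 and 7.67 in c-kit- cells, against 8.32, 8.42 and 8.46 in c-kit+ cells, a change of -0.68 (95% interval -0.91 to -0.45, adjusted p = 0.00243). In human cells Orc1 is the subunit whose protein is removed in S phase and remade for the next licensing. Orc2 to Orc6 had values between -0.29 (Orc6) and -0.09 (Orc5), with adjusted p of 0.258 to 0.722 in limma, and the intervals of Orc2, Orc3, Orc4 and Orc5 stayed within 0.5 of zero.

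The loading factors differed among themselves. Cdc6, the ATPase that joins ORC to admit the helicase, was at 7.03, 7.21 and 6.86 in c-kit- cells, against 8.19, 8.25 and 8.32 in c-kit+ cells. It was 2.33-fold lower (-1.22, interval -1.50 to -0.94, adjusted p = 0.000372), and the arrays of the populations lay about a whole log2 unit apart. Cdt1, which brings the helicase to Cdc6, was at 8.33, 8.36 and 8.51 in c-kit- cells and 8.49, 8.33 and 8.68 in c-kit+ cells. Its groups overlapped, and its change of -0.10 (interval -0.38 to 0.19) was not called. Gmnn encodes geminin, which binds Cdt1 and blocks licensing again after S phase has begun. Gmnn was at 8.95, 8.67 and 8.33 in c-kit- cells, against 9.56, 9.43 and 9.46 in c-kit+ cells, a change of -0.83 (interval -1.20 to -0.47, adjusted p = 0.00797).

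Of the 6 helicase subunits Mcm2 to Mcm7, 2 (33.3%) were lower in c-kit- cells, against 8.79% of all genes. The other 4 were not called, and the changes of the 6 were small. Mcm6 was at 9.81, 9.92 and 9.85 in c-kit- cells, against 10.21, 10.25 and 10.16 in c-kit+ cells, and passed the test narrowly (-0.35, adjusted p = 0.0426). Mcm2 did as well, with 8.98, 9.24 and 9.08 in c-kit- cells, against 9.56, 9.38 and 9.70 in c-kit+ cells (-0.45, adjusted p = 0.0420). Neither call held when arrays were left out. In limma, Mcm6 failed without any 1 of the 6 arrays (adjusted p 0.0758 to 0.120), and Mcm2 failed without c-kit- replicate 1 or 3 or c-kit+ replicate 1 or 3 (0.103 to 0.142). Mcm4 lay just past the threshold, with 9.53, 9.57 and 9.51 in c-kit- cells and 9.86, 9.80 and 9.88 in c-kit+ cells (-0.31, adjusted p = 0.0598), without overlap. Mcm5 (-0.25) and Mcm3 (-0.08) were not called. Mcm7 overlapped fully, with 8.81, 8.90 and 8.75 in c-kit- cells, 8.80, 8.81 and 8.88 in c-kit+ cells and an interval of -0.24 to 0.22. The differences between subunits were not tested. Mcm8 and Mcm9, relatives that act in homologous recombination and are needed for normal germ cell numbers in mice, had values of -0.17 and 0.25, and neither was called. Mcm9 was the gene closest to a call among those that were higher but failed, with 5.73, 6.06 and 5.68 in c-kit- cells and 5.58, 5.54 and 5.61 in c-kit+ cells (adjusted p = 0.238).

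**Figure D2:**
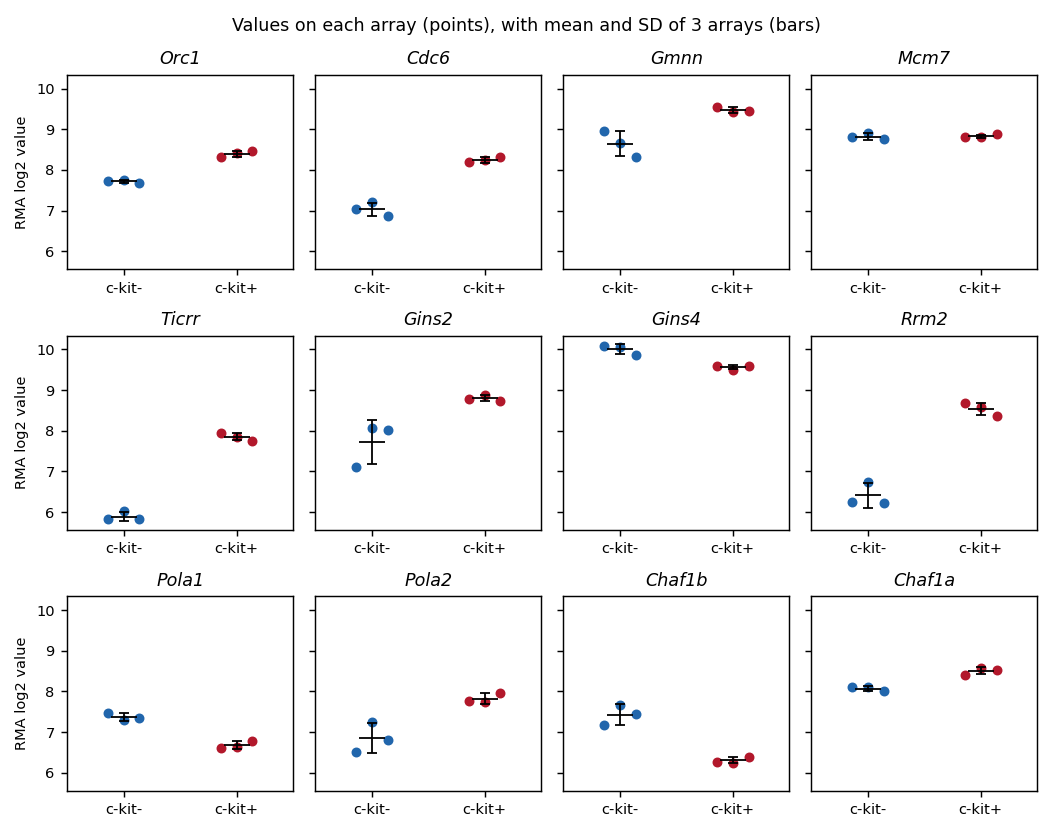
Log2 value (robust multi-array average) of 12 replication genes on each array (points, replicates 1 to 3 from left to right), with the mean and SD of 3 arrays (bars), c-kit- arrays on the left and c-kit+ arrays on the right of each panel. Ticrr, Rrm2 and Cdc6 are lower in c-kit- cells with wide gaps, Mcm7 overlaps, and Gins4, Pola1 and Chaf1b are higher in c-kit- cells.

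Of 11 genes that switch the loaded helicase on 8 (72.7%) were lower and 1 (9.09%) was higher in c-kit- cells, against 8.79% and 9.33% of all genes. The other 2 were not called, and the median was -0.54. Ticrr (treslin), which with Topbp1 brings Cdc45 to the helicase, had log2 values of 5.83, 6.02 and 5.82 in c-kit- cells, against 7.94, 7.85 and 7.75 in c-kit+ cells. This 3.89-fold lower level (-1.96, interval -2.21 to -1.70, adjusted p = 3.8e-05) had the lowest p of the 55 genes. Its partner Topbp1 was lower by a smaller amount (-0.49, adjusted p = 0.0223), a call that ended without c-kit+ replicate 1 or 3 (0.0655 to 0.0797, limma). Cdc45 itself changed by -0.65 (adjusted p = 0.00690) and Recql4, a helicase that takes part in origin firing, by -0.66 (adjusted p = 0.00546). Cdc7, the catalytic subunit of the kinase that phosphorylates the Mcm ring, changed by -0.38 (adjusted p = 0.0377), and its activating subunit Dbf4 by -0.34 without passing (adjusted p = 0.0829). The call of Cdc7 ended without any 1 array (0.0558 to 0.114, limma). Mcm10, which helps the active helicase to start unwinding, had a value of 0.26 and was not called (adjusted p = 0.253).

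The 4 subunits of GINS, which bind one another in equal amounts and stay with the helicase, moved in opposite directions. Gins2 was at 7.11, 8.07 and 8.01 in c-kit- cells, against 8.78, 8.87 and 8.73 in c-kit+ cells (-1.06, interval -1.61 to -0.52, adjusted p = 0.0159). The c-kit- arrays were spread over nearly a log2 unit, replicate 1 being the lowest, but none reached a c-kit+ array, and the call ended without c-kit+ replicate 1 or 2 (0.0504 to 0.0588, limma). Gins3 was at 6.95, 6.89 and 6.93 in c-kit- cells, against 7.73, 7.84 and 7.51 in c-kit+ cells (-0.77, interval -1.04 to -0.50, adjusted p = 0.00278), with the c-kit- arrays close together. Gins1 changed by -0.54 (adjusted p = 0.0395) and failed without c-kit- replicate 1 or 3 or c-kit+ replicate 1 or 2 (0.0731 to 0.125, limma). Gins4 was the exception, with 10.08, 10.05 and 9.85 in c-kit- cells, against 9.58, 9.50 and 9.59 in c-kit+ cells. It was higher in c-kit- cells (0.44, interval 0.19 to 0.69, adjusted p = 0.0251), but the call held only when c-kit- replicate 3 was the array left out (0.0609 to 0.0817 in the other cases, limma).

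Of 9 genes for polymerases and primase 3 (33.3%) were lower and 1 (11.1%) was higher in c-kit- cells, against 8.79% and 9.33% of all genes. The other 5 were not called, and the median was -0.29. The split between lower and higher genes ran through the polymerase α-primase complex, which lays down the RNA-DNA primers. Pola1, its X-linked catalytic polymerase subunit, was higher in c-kit- cells, with 7.47, 7.29 and 7.34, against 6.60, 6.64 and 6.79 in c-kit+ cells (0.69, interval 0.44 to 0.94, adjusted p = 0.00330). Pola2, the regulatory subunit that holds Pola1, was at 6.51, 7.24 and 6.81 in c-kit- cells, against 7.76, 7.74 and 7.97 in c-kit+ cells (-0.97, interval -1.39 to -0.55, adjusted p = 0.00768). Prim1, which makes the RNA primer, was also lower (-0.74, interval -1.06 to -0.41, adjusted p = 0.00800), and Prim2, the large primase subunit, was not called (-0.23, interval -0.47 to 0.02).

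For the polymerases that extend the primers, 1 of 5 genes was called. Pole, the catalytic subunit of polymerase ε on the leading strand, had a value of -0.29 without overlap between the populations and without a call (adjusted p = 0.0908). Pole2, its second subunit, was at 6.60, 7.03 and 7.04 in c-kit- cells and 7.75, 7.15 and 7.45 in c-kit+ cells (-0.56, adjusted p = 0.0724), and passed when c-kit+ replicate 2 was left out (0.0442, limma). For polymerase δ, which copies the lagging strand, the accessory subunit Pold2 was lower (-0.55, adjusted p = 0.0379), with a call that held only without c-kit- replicate 1 (0.0718 to 0.114 without any other array, limma). The catalytic subunit Pold1 had a value of -0.26 (interval -0.65 to 0.12), and c-kit- replicate 1 was above the other c-kit- arrays, at 8.54 against 7.93 and 8.01. Without that array Pold1 passed (adjusted p = 0.0407, limma). Pold3, a further accessory subunit, was not called (-0.17, interval -0.42 to 0.08).

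Pcna, the sliding clamp that tethers the polymerases to DNA, was lower in c-kit- cells. It was at 10.92, 11.39 and 11.12 in c-kit- cells, against 11.79, 11.81 and 11.77 in c-kit+ cells, a 1.56-fold lower level (-0.64, interval -0.95 to -0.34, adjusted p = 0.0119). Rfc1 to Rfc5 form the loader that opens the clamp, and only Rfc2 among them was called. Rfc2 was at 7.50, 7.49 and 7.51 in c-kit- cells, against 8.09, 7.97 and 7.98 in c-kit+ cells (-0.51, adjusted p = 0.00823). The other loader subunits had values of -0.10 (Rfc1), 0.18 (Rfc3), 0.02 (Rfc4) and -0.02 (Rfc5), each with an interval within 0.5 of zero. Lig1, the ligase that seals Okazaki fragments, was lower (-0.47, adjusted p = 0.0353), and this held only without c-kit- replicate 1 (0.0537 to 0.112 without any other array, limma). Fen1, the nuclease that trims the flaps before ligation, had a value of -0.38 with a wide interval (-0.82 to 0.07). In all, 3 of the 8 genes for clamp, loader and ligation (37.5%) were lower, against 8.79% of all genes, and 5 were not called.

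The subunits of RPA, which coats single-stranded DNA in replication, repair and recombination alike, were not called. Their values were 0.08 for Rpa1, 0.21 for Rpa2 and -0.05 for Rpa3, and the intervals of Rpa1 (-0.15 to 0.30) and Rpa3 (-0.30 to 0.19) stayed within 0.5 of zero. The upper bound of Rpa2 was 0.51.

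The nucleotide supply held the gene with the largest change of the 55. All 5 of the supply genes had a negative value, with a median of -0.37. Rrm2, the small subunit of ribonucleotide reductase that dividing cells make in S phase, was at 6.24, 6.75 and 6.23 in c-kit- cells, against 8.67, 8.58 and 8.37 in c-kit+ cells. It was 4.39-fold lower (-2.13, interval -2.51 to -1.76, adjusted p = 0.000112), and the highest c-kit- array lay well below the lowest c-kit+ array. Rrm1, the large subunit, was close to the threshold, with 9.48, 9.42 and 9.40 in c-kit- cells and 9.88, 9.72 and 9.71 in c-kit+ cells (-0.34, adjusted p = 0.0594). Rrm2b, the small subunit that p53 induces and that serves cells outside S phase, was at 6.42, 5.91 and 5.58 in c-kit- cells and 6.23, 6.79 and 6.29 in c-kit+ cells. Its groups overlapped (-0.47, interval -0.99 to 0.06). Tk1, the thymidine kinase of the salvage pathway, had a value of -0.37 (adjusted p = 0.161, limma) and Tyms, the thymidylate synthase, of -0.17 (adjusted p = 0.400, limma). Thus 1 of the 5 genes (20.0%) was lower, against 8.79% of all genes.

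Chromatin assembly factor CAF-1, which places histones on new DNA through PCNA, was split as well. Chaf1b, its middle subunit, was at 7.17, 7.67 and 7.44 in c-kit- cells, against 6.27, 6.25 and 6.39 in c-kit+ cells. It was 2.17-fold higher in c-kit- cells (1.12, interval 0.80 to 1.44, adjusted p = 0.00115). Chaf1a, the large subunit that binds PCNA, was at 8.11, 8.11 and 8.00 in c-kit- cells, against 8.41, 8.58 and 8.53 in c-kit+ cells (-0.43, interval -0.67 to -0.20, adjusted p = 0.0213). The call of Chaf1a ended without c-kit- replicate 2 or 3 or c-kit+ replicate 2 or 3 (0.0502 to 0.0744, limma), whereas those of Chaf1b and Pola1 held without any 1 array.

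Differences between related genes on the same array show these splits without a reference to other genes. Probes of different genes differ in brightness, so that only the shift of a difference between the populations has a meaning. Rrm2 minus Rrm2b averaged 0.44 ± 0.54 on c-kit- arrays and 2.10 ± 0.32 on c-kit+ arrays (SD, n = 3 each), a shift of -1.67, and Rrm2 minus Rrm1 averaged -3.03 ± 0.31 on c-kit- arrays and -1.23 ± 0.10 on c-kit+ arrays. The small S-phase subunit thus shifted against the large subunit and against the other small subunit, without overlap of the arrays. Chaf1b minus Chaf1a averaged -0.65 ± 0.26 on c-kit- arrays and -2.20 ± 0.11 on c-kit+ arrays, a shift of 1.55. Pola1 minus Pola2 averaged 0.52 ± 0.46 on c-kit- arrays and -1.14 ± 0.05 on c-kit+ arrays, a shift of 1.66. Gins4 minus Gins1 shifted by 0.98 and Cdt1 minus Gmnn by 0.74, and for all 6 pairs the arrays of the populations did not overlap. The kinase subunits kept their difference, with Dbf4 minus Cdc7 at 0.78 ± 0.01 on c-kit- arrays and 0.75 ± 0.24 on c-kit+ arrays. Mcm8 minus Mcm9 also overlapped, at 2.08 ± 0.42 on c-kit- arrays and 2.50 ± 0.23 on c-kit+ arrays. The pairs were chosen with the results of single genes known, so these shifts are a description and were not tested.

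**Figure D3:**
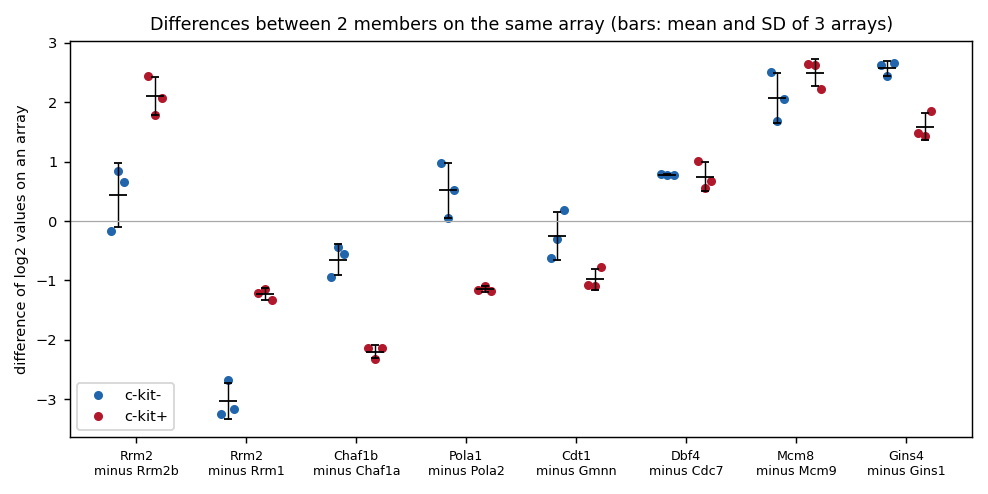
Difference between the log2 values of 2 replication genes on the same array (y axis) for 8 pairs of related genes (x axis), c-kit- arrays left of c-kit+ arrays; bars are the mean and SD of 3 arrays. The populations are apart for Rrm2 against Rrm2b and Rrm1, Chaf1b against Chaf1a, Pola1 against Pola2, Cdt1 against Gmnn and Gins4 against Gins1, and overlap for Dbf4 against Cdc7 and Mcm8 against Mcm9.

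A further 59 genes that serve replication were examined beside these 55. Of the 59, 20 (33.9%) were lower in c-kit- cells, against 8.79% of all genes, and 34 were not called. The 5 higher genes (8.47%) were close to the share over all genes, 9.33%. In the control of initiation 5 of 10 were lower and 0 were higher, against 8.79% and 9.33% of all genes. Donson, which delivers GINS to the helicase, averaged 7.36 ± 0.34 on c-kit- arrays and 8.69 ± 0.15 on c-kit+ arrays (SD, n = 3 each), a change of -1.33 (adjusted p = 0.00147, limma). Mtbp, the partner of treslin, changed by -0.87 (adjusted p = 0.00817, limma), and Dtl, which directs the destruction of Cdt1 in S phase, by -0.70 (adjusted p = 0.00473, limma). The calls of these 3 genes held without any 1 array. Mcmbp, which binds free Mcm subunits, changed by -0.41 (adjusted p = 0.0249, limma), a call that ended without c-kit- replicate 2 or 3 or c-kit+ replicate 1 or 3 (0.0601 to 0.0868).

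At the fork and in its checkpoint 9 of 22 genes (40.9%) were lower and 1 (4.55%) was higher, against 8.79% and 9.33% of all genes. Atad5, which unloads PCNA, averaged 7.30 ± 0.10 on c-kit- arrays and 8.53 ± 0.23 on c-kit+ arrays (-1.23, adjusted p = 0.000686, limma). The topoisomerases Top2b (-0.93) and Top2a (-0.87), which untangle DNA, and the checkpoint kinase Chek1 (-0.79) were also lower. Chtf8, a subunit of the alternative clamp loader, was higher, with 9.72 ± 0.19 on c-kit- arrays and 9.05 ± 0.11 on c-kit+ arrays (0.66, adjusted p = 0.00857, limma). Dscc1, another subunit of that loader, was lower (-0.75, adjusted p = 0.00207, limma), and Chtf18, the third, was not called (-0.09, adjusted p = 0.701, limma).

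Of 15 genes of the wider nucleotide supply reported here, 3 (20.0%) had a higher level in c-kit- cells, against 9.33% of all genes. Their array means were 8.41 to 8.80, and among genes above the median level, with 2275 called higher, the share was larger than 9.33%. The 3 genes are therefore not taken as an excess. The other 12 were not called, and the median of the 15 was 0.21. Samhd1, which breaks deoxynucleotides down and keeps them low outside S phase, averaged 10.37 ± 0.08 on c-kit- arrays and 8.95 ± 0.02 on c-kit+ arrays. Its change of 1.42 (interval 1.19 to 1.65, adjusted p = 8.3e-05, limma) was opposite to that of Rrm2, which makes them. Dctd, the dCMP deaminase, was higher (0.59, adjusted p = 0.0194, limma) and lost its call without c-kit- replicate 2 or c-kit+ replicate 2 or 3 (0.0629 to 0.0748). Dtymk, the thymidylate kinase, was higher (0.40, adjusted p = 0.0421, limma) and lost its call without any 1 array (0.0625 to 0.130).

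Of 12 genes for histone supply and maintenance methylation 6 were lower and 1 was higher, against 8.79% and 9.33% of all genes. The share of higher genes was thus close to that over all genes. The histone chaperones Asf1a and Asf1b, which are close paralogs that hand new histones to CAF-1, went opposite ways. Asf1b, the form made in proliferating cells, averaged 8.20 ± 0.17 on c-kit- arrays and 9.30 ± 0.06 on c-kit+ arrays (-1.10, adjusted p = 0.000550, limma). Asf1a averaged 9.93 ± 0.04 on c-kit- arrays and 9.29 ± 0.04 on c-kit+ arrays (0.64, adjusted p = 0.00270, limma). Tonsl (-0.75), which reads new histones, Casp8ap2 (-0.62), which is needed for histone transcripts, and the histone chaperone Nasp (-0.52) were lower in c-kit- cells.

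**Figure D4:**
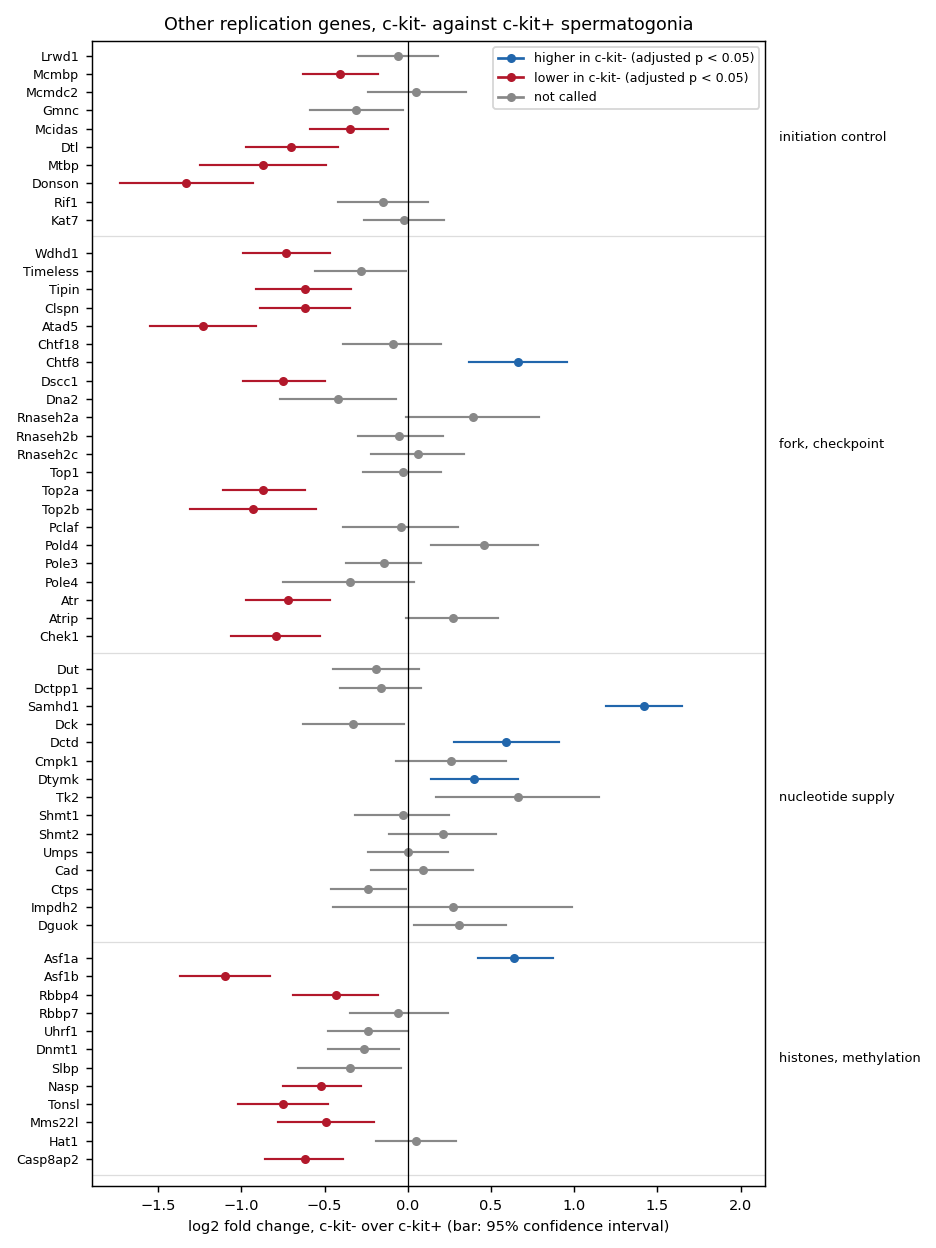
Log2 fold change of 59 other genes that serve replication, c-kit- over c-kit+ spermatogonia (x axis), by role (rows); points are limma estimates from 3 arrays per population, bars are 95% confidence intervals and colours give the call at an adjusted p under 0.05. Initiation, fork and histone genes lie mostly left of zero with Donson, Atad5 and Asf1b farthest left, and Samhd1 lies farthest right.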

How the data were processed

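The authors sorted the cells, amplified the RNA and hybridised it to the arrays, and deposited log2 values made with robust multi-array average (RMA), which corrects background, quantile-normalizes arrays and summarizes probes. The version of RMA and how probe sets were defined are not given in the sources used here. The deposited table held 1 value per gene ID and array for 24973 genes, between 2.03 and 12.97, with array medians of 5.25 to 5.33. It was not normalized again. Genes were named by ID from a gene table of GRCm38.p6 (24481) and the platform's table (93), and 399 stayed without a name.

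Every gene entered 1 limma fit (version 3.58.1, R 4.3.3, lmFit and eBayes) with the population as its term, and p was adjusted over the whole table by Benjamini-Hochberg. An adjusted p under 0.05 was a call. The methods name an ANOVA per gene, which was run as an alternative. The procedure was tested on simulated data. Replicates came from 1 mouse each. Arrays give no counts, so their number limits the precision. Further alternatives covered scaling, filters on low values, limma's variance settings, thresholds, a replicate block and each array left out.

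The rule for the 55 genes uses no measured value. Still, the 55 genes, the 59 further genes, the markers and the pairs were chosen with earlier results of these data known. All 55 genes are accounted for. Values per array were given for called genes with an absolute log2 fold change of at least 0.75, for genes called higher and for those nearest the threshold, and for some others chosen after their values were seen. Of the 59 further genes up to 4 called genes per role and direction were named, and Dscc1 and Chtf18 were named after their values were seen. Dbf4b, Lyz2 and Insl3 were not analysed here, and 1 gene of nucleotide supply is not reported here. Promoter windows are RefSeq's, matched by gene ID, and a gene counted as holding a match if any of its windows did.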

Additional observations from a re-analysis of the deposited data

How the results depend on the processing

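The median of every role kept its sign under the other scalings, which left the median of all genes between -0.04 and -0.01. The study's thresholds (fold change over 1.5, p under 0.02) were applied here to limma's unadjusted p, whereas the study's methods name an ANOVA. The count of lower replication genes, 21, was 13 with the ANOVA and 12 at those thresholds. It was 7 against a fold change of 1.2, and 13 to 18 with 1 array left out. Without c-kit+ replicates 1 and 2 it was 3, with 0 higher. Other filters, scalings and variance settings gave 19 to 25. With equal array medians Mcm2 and Mcm6 were not called, and Mcm4, Rrm1, Pole2, Dbf4 and Pole, just short of the threshold, passed under some of these settings or the ANOVA. The count of higher genes was 2 to 3 with 1 array left out. Over all genes, 2196 lower and 2331 higher became 1205 and 1307 with the ANOVA, 855 and 1196 against a fold change of 1.2 and 239 and 527 without c-kit+ replicates 1 and 2, and 1451 were lower at the study's thresholds. With 1 array left out they were 1478 to 1889 lower and 1727 to 2195 higher. Why these counts moved was not tested, except that leaving out arrays leaves fewer samples.

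Replicate numbers are shared between the populations, but same-numbered arrays correlated in their deviations by only 0.0999, 0.0973 and 0.137, so they were not taken as pairs. Every array correlated best with its own number, which is a hint from the data and not from the design. With the replicate block 17 replication genes were lower, with Mcm2 (adjusted p = 0.0661, limma), Mcm6 (0.0776), Cdc7 (0.0681) and Lig1 (0.0529) not called, 3 were higher, and over all genes 2163 were lower and 2350 higher.

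Genes near zero changed sign, none of them with a call. With 1 array left out Mcm7 ranged between -0.05 and 0.02, Rfc4 between -0.05 and 0.15 and Rfc5 between -0.08 and 0.01. Rfc5 was at 0.0038 with array weights. Without c-kit+ replicates 1 and 2, Mcm8 was at 0.07, Rfc5 at 0.06 and Rpa3 at 0.07.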
